A study of Mus musculus with 6 samples.

Results

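Neuronal splicing and RNA-binding regulators are 10 genes chosen by symbol from the gene table of the series: Srrm4, Ptbp1, Ptbp2, Ptbp3, Nova1, Nova2, Elavl3, Elavl4, Celf4 and Rbfox2. They are 10 of the 31641 genes in the table, each with 1 row, and all 10 had enough reads to be tested. RNA was sequenced from total RNA of E14, an established line of mouse embryonic stem cells. The control group (CON) has wild-type Nat10 and received no doxycycline, and the knockdown group (KD) carries the Nat10 knockdown and received doxycycline, with 3 libraries each. Nat10 encodes an RNA acetyltransferase, and the series title names pluripotency and the 2C state as the question. The labels describe neither the knockdown construct nor how many clones it was made in. No group received doxycycline without the knockdown, so the drug and the loss of Nat10 cannot be told apart here.

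These genes encode proteins that bind RNA in the nucleus or cytoplasm and decide which exons a transcript keeps. PTBP1, the polypyrimidine tract binding protein of most dividing cells, holds back many neuronal exons, including an exon of Ptbp2 whose loss sends the Ptbp2 transcript to decay. In developing neurons PTBP1 falls, PTBP2 takes its place, and SRRM4, NOVA, RBFOX, ELAVL and CELF proteins then switch on neuronal exons. SRRM4 promotes the very short exons called microexons and also acts on the transcript of REST, the repressor of neuronal genes that in turn silences Srrm4 outside neurons. The counts used here are totals per gene, so they show how much transcript each regulator had and say nothing of which exons were used.

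The 6 libraries held 33770755 to 39524273 counts each. Nat10, the targeted gene, had 4877 to 5496 counts in the CON libraries and 1050 to 1164 in the KD libraries. Levels below are in CPM, counts brought to a common library total with edgeR's TMM scaling, and are given as mean ± SD with n = 3. Each fold change divides KD by CON and carries a standard error (SE) from edgeR's quasi-likelihood test, whose p-values were adjusted by the Benjamini-Hochberg method across the 18019 genes that entered the test. Nothing in the labels says that the 3 libraries of a group were separate cultures, so the spread between them may be technical. TMM factors differed between the groups, and scaling by library size only moved the fold changes by a median of 0.23 on the log2 scale towards KD. All 8 stem cell markers (Pou5f1, Sox2, Nanog, Zfp42, Esrrb, Tdgf1, Dppa5a and Klf4) were lower in KD, with a summed level of 6288 to 6341 CPM in CON and 2191 to 2250 in KD. Of 11 neuron markers tested, 5 were higher, among them Syp, Map2, Snap25 and Syn1, and 4 lower, namely Stmn2, Tubb3, Gap43 and Nefl. Their summed level was 179 to 184 CPM in CON and 121 to 125 in KD. That sum is dominated in CON by Stmn2 (94.6 CPM, and 21.8 in KD) and Tubb3 (37.2 and 5.64), while Syp went from 0.903 to 29.1 CPM. Its fall is therefore no common direction of the list. Of 6 neural progenitor markers 3 were tested, with Nes higher and Pax6 and Sox1 lower, while Hes5, Neurog2 and Fabp7 had 0 to 10 counts in every library. Fibroblast markers summed to 13.4 to 16.6 CPM in CON and 24.8 to 28.4 in KD. Of the 3 tested, Col1a1 and Col1a2 were higher and Thy1 lower, and of the untested ones Col3a1 had 2 to 3 counts in CON and 0 to 2 in KD and Postn 2 to 4 in CON and 6 to 10 in KD. Glia markers gave 0 higher and 1 lower of 3 tested, and endoderm and mesoderm markers 1 higher and 1 lower of 8. Beside these marker counts, 32.2% of all tested genes were higher and 30.8% lower. The part of these other cell types in the results below was not tested, and in such bulk RNA fewer cells of a type and less transcript per cell cannot be told apart.

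In the PTB family Ptbp1 and Ptbp3 fell and Ptbp2 rose in KD, and of the 6 members that passed the test, these 3 alone kept their call in each of 13 alternative analyses. Elavl3 also rose, Nova1 and Rbfox2 fell by small amounts that depended on how libraries were scaled, and Srrm4, Nova2, Elavl4 and Celf4 did not pass the test. In all, 6 of 10 members passed, 2 higher and 4 lower, where 63% of all tested genes passed, 32.2% higher and 30.8% lower. The members' share of 60% is thus near the background. The libraries of the 2 groups did not overlap for 7 of 10 members, against 67.1% of all tested genes. The median log2 fold change of the members was -0.25, beside 0.02 over all genes tested. With libraries scaled by size only, 3 members were higher and 2 lower, the members' median was -0.02, and that over all genes was 0.25.

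**Figure D1:**
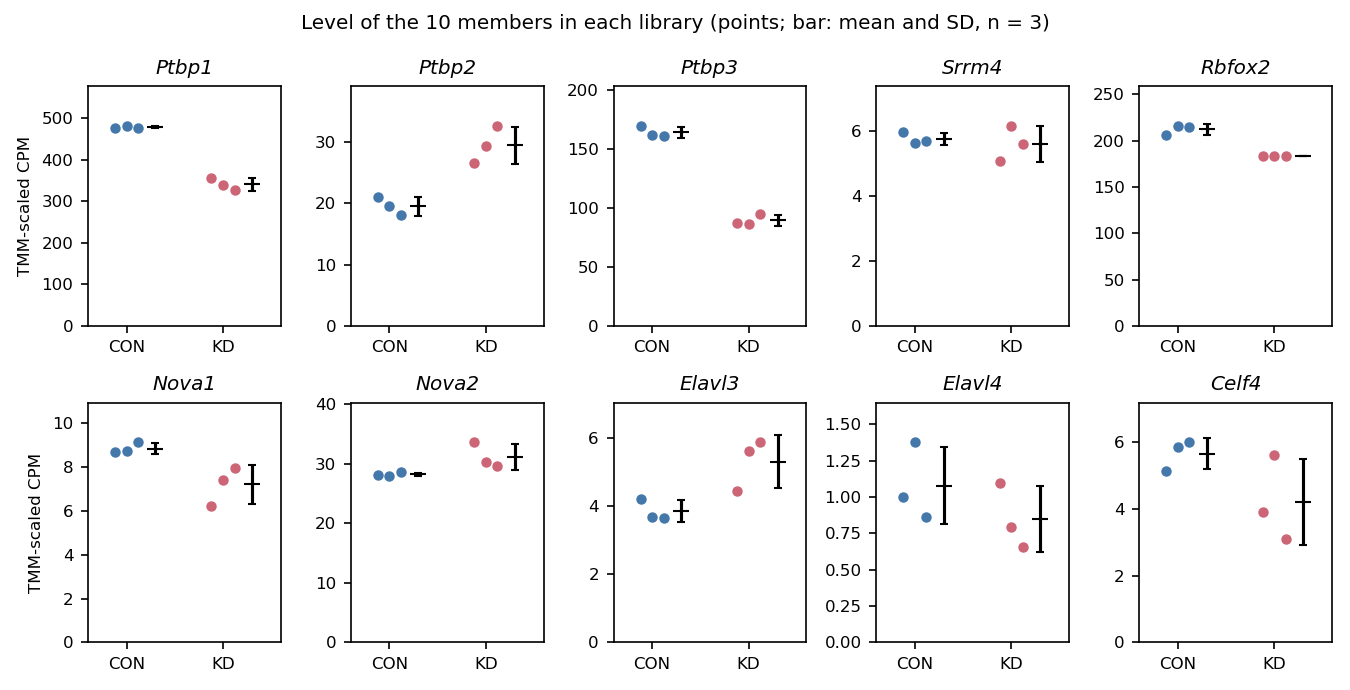
Each panel plots the TMM-scaled CPM of 1 regulator (vertical axis, from 0) in the CON and KD libraries, 1 point per library, with the mean and SD (n = 3) as a bar beside the points. The KD points of Ptbp1 (327 to 357 CPM) and Ptbp3 (86.3 to 94.5 CPM) lie below all CON points, those of Ptbp2 (26.6 to 32.6 CPM) lie above them, and the points of Srrm4, Elavl4 and Celf4 overlap.

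The regulators spanned a wide range of abundance. Per kilobase of gene length, Ptbp1 led in CON at 101 ± 0.603 CPM per kilobase, followed by Rbfox2 at 26 ± 0.691 and Ptbp3 at 21.9 ± 0.617. Nova2 (3.37 ± 0.0391), Ptbp2 (2.13 ± 0.167) and Nova1 (1.01 ± 0.0274) came next on the same scale. Srrm4, Celf4 and Elavl3 followed at 0.662 ± 0.021, 0.659 ± 0.0537 and 0.559 ± 0.0465 CPM per kilobase, where each overlapped its neighbour in the order, and Elavl4 was lowest at 0.2 ± 0.0494. In KD the first 6 places were the same, but Nova2 (3.72 ± 0.256) and Ptbp2 (3.21 ± 0.328) now overlapped, and so did Nova1 (0.824 ± 0.103), Elavl3 (0.771 ± 0.112), Srrm4 (0.644 ± 0.0626) and Celf4 (0.489 ± 0.149), each with the next. The regulators best known from neurons thus sat far below Ptbp1 in both groups. The gene lengths come from the deposited FPKM and differ by unlike amounts from the single GENCODE transcript of each gene used below. Ptbp3 has 7480 bases against 3409, Rbfox2 8140 against 6907 and Nova2 8372 against 8372. The order of the genes below Ptbp1 can therefore change with the length used.

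Ptbp1 lies on chromosome 10 (chr10:79854427-79864771, forward strand, GRCm38), Ptbp2 on chromosome 3 (chr3:119718742-119784466, reverse strand) and Ptbp3 on chromosome 4 (chr4:59471868-59549364, reverse strand). The 3 proteins are close relatives, so the comparison rests on telling their reads apart. A 90-base coding stretch from the region where Ptbp1 and Ptbp2 share their longest identical run shows how far the transcripts have drifted. Capitals mark bases at which the 3 genes do not all agree. The stretches lie within 1 exon each, at chr10:79859824-79859913 on the forward strand, chr3:119740378-119740467 on the reverse strand and chr4:59493228-59493317 on the reverse strand (GRCm38, GENCODE M21 transcripts).
Ptbp1: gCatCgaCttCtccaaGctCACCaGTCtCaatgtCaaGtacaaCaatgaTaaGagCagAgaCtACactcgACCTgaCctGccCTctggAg
Ptbp2: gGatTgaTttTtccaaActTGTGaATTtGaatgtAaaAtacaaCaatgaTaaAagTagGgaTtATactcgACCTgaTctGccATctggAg
Ptbp3: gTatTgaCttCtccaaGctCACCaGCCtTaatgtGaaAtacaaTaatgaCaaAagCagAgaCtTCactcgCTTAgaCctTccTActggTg
In this window 32 of 90 bases were not common to all 3 genes. Ptbp2 shared 69 bases with Ptbp1 in this window and Ptbp3 shared 72. The longest identical run between the coding sequences was 14 bases for Ptbp1 and Ptbp2, 20 for Ptbp1 and Ptbp3 and 17 for Ptbp2 and Ptbp3. A 90-base window around the run of Ptbp1 and Ptbp3 had 76 identical bases, so these genes were more alike there than in the stretch shown. For each gene 1 transcript was searched, of 3364 bases for Ptbp2 and 3409 for Ptbp3, where the gene lengths are 9175 and 7480 bases. No run of 50 bases in these Ptbp2 and Ptbp3 transcripts occurred in any other gene's transcript. The rest of either gene was not searched. In the Ptbp1 transcript 8.04% of 50-base runs and 1.4% of 100-base runs did, all of them shared with the gene models Gm4900 and Gm18815, and Gm4900 had only 2 to 14 counts in each library.

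Ptbp1 stood at 478, 481 and 476 CPM in the control libraries, in the order of their numbers, and at 357, 339 and 327 CPM in the knockdown libraries. All KD libraries were below all CON libraries. The mean fell from 478 ± 2.86 to 341 ± 15 CPM, 1.4-fold lower (log2 fold change -0.49, SE 0.042, edgeR adjusted p = 7.61e-08). With libraries scaled by size only the fall was smaller, at a log2 fold change of -0.26 (edgeR adjusted p = 5.2e-05).

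Ptbp3, a relative of PTBP1 best known from blood cells, fell further. It had 169, 162 and 161 CPM in CON against 87.6, 86.3 and 94.5 CPM in KD, without overlap. The mean went from 164 ± 4.61 to 89.4 ± 4.43 CPM, 1.83-fold lower (log2 fold change -0.88, SE 0.05, edgeR adjusted p = 7.4e-10).

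Ptbp2, the neural paralog, moved the other way. Its level was 21.1, 19.5 and 18 CPM in CON against 26.6, 29.3 and 32.6 CPM in KD, all KD values above all CON values. The mean rose from 19.5 ± 1.53 to 29.5 ± 3.01 CPM, 1.51-fold higher (log2 fold change 0.59, SE 0.087, edgeR adjusted p = 2.43e-05).

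Balance within the family can be read without any scaling between libraries. The ratio of Ptbp2 to Ptbp1, in counts per base of gene length, was 0.0228, 0.0209 and 0.0196 in CON and 0.0385, 0.0445 and 0.0516 in KD, a 2.12-fold rise. The ratio of Ptbp3 to Ptbp1 went from 0.217 ± 0.00632 to 0.167 ± 0.0147, 1.31-fold lower, so Ptbp3 fell by more than Ptbp1. Neither ratio overlapped between the groups, and each had p = 0.1 in the exact two-sided permutation test, the smallest that 3 libraries against 3 allow (adjusted p = 0.133 over the 4 ratios compared, exact test). Ptbp2 made up 1.7 ± 0.121% of the family's summed level per kilobase in CON and 3.7 ± 0.475% in KD, while Ptbp1 made up 80.8 ± 0.505% and 82.6 ± 1.42%. The summed level of the 3 genes went from 125 ± 0.99 to 87.1 ± 2.46 CPM per kilobase. These shares and sums depend on the gene lengths used, 4740 bases for Ptbp1, 9175 for Ptbp2 and 7480 for Ptbp3. The single transcripts have 3110, 3364 and 3409 bases and would give other shares. The fold changes of the ratios do not depend on the lengths. Ptbp1 therefore remained by far the most abundant of the 3 in KD.

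**Figure D2:**
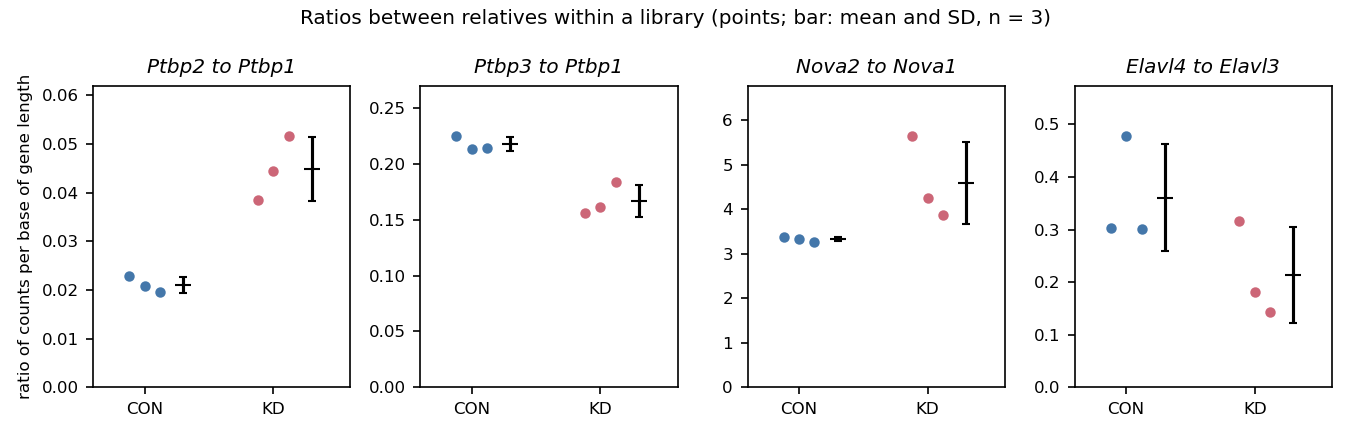
Each panel plots the ratio of 2 related genes within a library, in counts per base of gene length (vertical axis, from 0), with 1 point per library and the mean and SD (n = 3) as a bar. Ptbp2 to Ptbp1 rises from 0.0211 ± 0.00162 in CON to 0.0449 ± 0.00653 in KD and Ptbp3 to Ptbp1 falls, while the Elavl4 to Elavl3 points overlap between the groups.

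Ptbp1 overlaps other genes on the opposite strand, and no source used here gives the strand setting of the counting. Its exons share 251 bases with Plppr3, 295 with E130317F20Rik and 437 with Gm17134. Plppr3 had 241 to 339 counts and E130317F20Rik 143 to 246 in each library, against 11958 to 17518 for Ptbp1. Ptbp3 shares 207 exonic bases with 1700018M17Rik, which had at most 1 count in a library. Ptbp2 shares none.

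**Figure D3:**
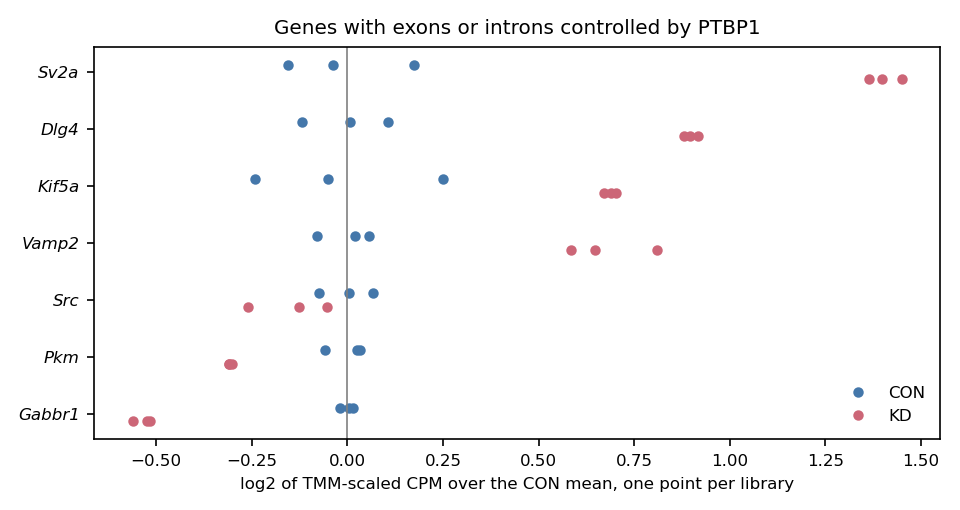
For 7 genes with exons or introns controlled by PTBP1, the plot gives the log2 of the TMM-scaled CPM of each library over the CON mean (horizontal axis), 1 point per library. Sv2a, Dlg4, Kif5a and Vamp2 lie to the right in all 3 KD libraries, and Gabbr1 and Pkm lie to the left.

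Of 7 genes known to carry exons or introns under PTBP1 control, 4 were higher and 3 lower, where 63% of all tested genes passed. The list's median log2 fold change was 0.68, beside 0.02 over all genes. The vesicle protein gene Sv2a rose from 15.1 ± 1.78 to 39.9 ± 1.21 CPM, 2.64-fold (edgeR adjusted p = 1.07e-09). Dlg4, which encodes the postsynaptic scaffold PSD-95 and has an exon whose skipping under PTBP1 sends its transcript to decay, rose 1.86-fold from 12.1 ± 0.942 to 22.6 ± 0.285 CPM. Vamp2, of the vesicle fusion machinery, and the neuronal kinesin gene Kif5a each rose 1.61-fold. PTBP1 is known to hold back the removal of introns near the end of the Vamp2, Kif5a and Sv2a transcripts. The genes that fell were the GABA receptor subunit gene Gabbr1, from 217 ± 2.55 to 150 ± 2.52 CPM, the pyruvate kinase gene Pkm, by 1.24-fold from 2772 ± 94.2 CPM, and the kinase gene Src, from 120 ± 5.9 to 109 ± 7.86 CPM, whose libraries overlapped between the groups. With libraries scaled by size only, 4 of these genes were higher and 1 lower, Pkm no longer passed and Src was no longer below CON (log2 fold change 0.08). Rest, a repressor of neuronal genes, was also lower in the same libraries. The part of PTBP1 or of REST in these values was not tested.

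Srrm4 lies on chromosome 5 (chr5:116439275-116591817, reverse strand, GRCm38). It had 203, 204 and 185 counts in CON against 212, 263 and 204 in KD, or 5.95, 5.61 and 5.68 CPM against 5.05, 6.14 and 5.57 CPM. The groups overlapped. Its log2 fold change was -0.04 (SE 0.125, edgeR adjusted p = 0.8), with a 95% interval from -0.31 to 0.23, so a change of 1.5-fold in either direction lies outside the interval. Its sign was not stable, at 0.19 with libraries scaled by size only (edgeR adjusted p = 0.2). Srrm3, a relative that also promotes microexons, rose from 1.34 ± 0.336 to 7.33 ± 0.722 CPM, 5.49-fold (edgeR adjusted p = 1.16e-08). Per kilobase, Srrm3 was at 0.209 ± 0.0525 CPM in CON and 1.14 ± 0.113 in KD, and Srrm4 at 0.662 ± 0.021 and 0.644 ± 0.0626. Srrm3 was thus below Srrm4 in CON and above it in KD, on this scale per length.

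The Rest transcript went from 385 ± 3.24 CPM down to 101 ± 4.44 CPM, 3.82-fold lower (edgeR adjusted p = 5.53e-14), while Srrm4 did not pass the test. Of 9 genes of REST and its corepressors, 2 were higher, 6 lower and 1 did not pass. Of all tested genes 63% passed, 32.2% higher and 30.8% lower. The deacetylase gene Hdac1 fell 1.59-fold, Rcor2 1.93-fold and the scaffold gene Sin3a 1.29-fold, while Rcor1 and Rcor3 rose 1.1-fold and 1.18-fold. The falls of Kdm1a (log2 fold change -0.23) and Hdac2 (-0.2), named after their values were seen, were not seen with libraries scaled by size only, where 4 of the list were lower. REST binds a long DNA element called RE1. A 14-base form of its core with 2 free positions, searched on both strands, was found in 17 of 32851 promoter windows of 250 bases before to 50 bases after a start site (0.0517%, RefSeq, GRCm38.p6). None of the 10 windows of the 7 members listed there, Srrm4 among them, held it, which says only that these letters are not in those windows.

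Of 12 genes with microexons or other short exons under SRRM4 control, 5 were higher, 5 lower and 2 not past the test. Of all tested genes 63% passed, 32.2% higher and 30.8% lower. The list's median log2 fold change was 0.05, beside 0.02 over all genes. Unc13b, a vesicle priming gene, rose 1.7-fold from 67 ± 4.35 to 114 ± 1.89 CPM, and Apbb1, an adaptor of the amyloid precursor protein, rose 1.81-fold from 35.6 ± 2.77 to 64.3 ± 3.8 CPM. Cpeb4 and Mef2d rose 1.29-fold and 1.19-fold. Besides Rest, the falls were led by the translation initiation gene Eif4g1, 1.37-fold, the endocytic adaptor gene Itsn1, 1.42-fold, and the actin regulator gene Daam1, 1.56-fold. The fifth gene in each direction was named after its value was seen: Agrn among the rises, with libraries that overlapped between the groups, and Kdm1a among the falls. The number higher went to 7 and the number lower to 4 with libraries scaled by size only. Over all tested genes that scaling gave 8275 higher and 3535 lower, against 5801 and 5543 with TMM.

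NOVA1 and NOVA2 bind clusters of YCAY in RNA and control exons of synaptic genes. Nova1 lies at chr12:46694517-46818929 on the reverse strand and Nova2 at chr7:18925888-18965319 on the forward strand (GRCm38). To show how well reads separate them, a 90-base coding stretch around their longest identical run (14 bases) is given, with capitals at the 19 bases that differ. It spans 2 exons in each gene, within chr12:46720839-46816957 on the reverse strand and chr7:18942288-18950470 on the forward strand.
Nova1: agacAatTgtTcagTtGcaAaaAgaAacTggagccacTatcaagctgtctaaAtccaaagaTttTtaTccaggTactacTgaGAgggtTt
Nova2: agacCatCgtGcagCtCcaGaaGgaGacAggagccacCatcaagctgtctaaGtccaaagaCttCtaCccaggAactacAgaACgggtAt
Nova1 had 8.68, 8.74 and 9.12 CPM in CON against 6.22, 7.42 and 7.98 CPM in KD, with no overlap. Its mean fell from 8.85 ± 0.24 to 7.21 ± 0.897 CPM (log2 fold change -0.3 with SE 0.115 and edgeR adjusted p = 0.0352). The call was lost with libraries scaled by size only (log2 fold change -0.07) and in DESeq2 (adjusted p = 0.0682). It was also lost on leaving out CON-1, CON-2, CON-3, KD-1 or KD-2, with edgeR adjusted p from 0.054 to 0.157. Nova2 had 28.1, 27.9 and 28.6 CPM in CON against 33.6, 30.2 and 29.6 CPM in KD, again without overlap. Its log2 fold change of 0.14 (SE 0.069) did not pass (edgeR adjusted p = 0.0861), but it passed at 0.37 with libraries scaled by size only (edgeR adjusted p = 0.000207) and at 0.17 without KD-3 (edgeR adjusted p = 0.0246). The ratio of Nova2 to Nova1 was 3.27 to 3.38 in CON against 5.64, 4.25 and 3.87 in the numbered KD libraries, with KD-1 highest (p = 0.1 in the exact test, adjusted p = 0.133). Exons of Nova2 share 2652 bases with Gm26821 on the opposite strand, whose reads were not analysed here. Nova1 shares 310 with Gm33869 on its own strand, a gene model of 26 to 42 counts per library.

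ELAVL3 and ELAVL4 are neuronal members of the Hu family, which stabilise transcripts with AU-rich elements and also act in splicing. Elavl3 lies at chr9:22015005-22052023 and Elavl4 at chr4:110203722-110351909, both on the reverse strand (GRCm38). Their coding sequences share an identical run of 29 bases, the longest of the pairs compared. The 90-base stretch around it, within 1 exon of each gene (chr9:22018569-22018658 and chr4:110206398-110206487, reverse strand), differs at the 8 bases in capitals.
Elavl3: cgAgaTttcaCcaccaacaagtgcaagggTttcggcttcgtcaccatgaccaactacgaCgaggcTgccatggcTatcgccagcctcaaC
Elavl4: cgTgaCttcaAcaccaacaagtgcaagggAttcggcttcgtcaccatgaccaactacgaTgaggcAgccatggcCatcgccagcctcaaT
Elavl3 had 144, 134 and 119 counts in CON against 186, 241 and 215 in KD, or 4.22, 3.68 and 3.65 CPM against 4.43, 5.63 and 5.87 CPM. The KD libraries were all higher, KD-1 only slightly. The mean rose from 3.85 ± 0.32 to 5.31 ± 0.77 CPM, 1.38-fold (log2 fold change 0.46 with SE 0.149 and edgeR adjusted p = 0.0136). The call was lost, at edgeR adjusted p = 0.052, 0.0506 and 0.0596, without CON-2, CON-3 or KD-2. Of the 50-base runs in the Elavl3 transcript, 4.35% occur in transcripts of other genes, among them Gm49318 and Celf6. Gm49318 shares 256 exonic bases with Elavl3 on the same strand, and its reads were not analysed here. Celf6 rose, and the part of shared reads in the Elavl3 values was not tested. Elavl4 had 34, 50 and 28 counts in CON against 46, 34 and 24 in KD, with overlap. It did not pass (log2 fold change -0.34, SE 0.309, edgeR adjusted p = 0.353). Its 95% interval ran from -1 to 0.32. The ratio of Elavl4 to Elavl3 was 0.36 ± 0.101 in CON and 0.213 ± 0.0913 in KD (p = 0.3 in the exact test). Of the family's other genes, Elavl2, which is also neuronal, rose 1.17-fold from 13.9 ± 0.646 to 16.2 ± 0.432 CPM. Elavl1, which encodes the ubiquitous HuR, did not pass at 106 ± 0.576 CPM in CON against 101 ± 2.59 in KD (edgeR adjusted p = 0.217), though it passed as higher with libraries scaled by size only (log2 fold change 0.16).

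Celf4, a CELF family gene that acts on excitability in neurons, had 175, 213 and 195 counts in CON against 164, 240 and 113 in KD. In CPM this was 5.13, 5.85 and 5.99 against 3.91, 5.6 and 3.09, so KD-2 reached into the CON range and the groups overlapped. Its mean was 5.66 ± 0.461 CPM in CON and 4.2 ± 1.28 in KD, and it did not pass (log2 fold change -0.42 with SE 0.182 and edgeR adjusted p = 0.0553). It passed in 4 of 13 alternatives and not in the other 9. Scaling by size only gave a log2 fold change of -0.19 (edgeR adjusted p = 0.368), and RLE library factors gave -0.44 (edgeR adjusted p = 0.0492). Single KD libraries moved the value in both directions, to -0.7 without KD-2 (edgeR adjusted p = 0.00288) and to -0.25 without KD-3 (edgeR adjusted p = 0.162). Its relatives Celf3 and Celf6 gave the largest rises among the related regulators. Celf3 rose from 1.01 ± 0.257 to 6.66 ± 0.497 CPM, 6.64-fold (edgeR adjusted p = 4.61e-09), and Celf6 from 0.646 ± 0.152 to 8.93 ± 0.245 CPM, 13.9-fold (edgeR adjusted p = 6.68e-11). The CON libraries held 27, 34 and 42 counts of Celf3 and 22, 18 and 26 of Celf6, so both folds start from few reads. Celf2 and Celf5 rose 1.48-fold and 1.19-fold, while the broadly expressed Celf1 fell 1.29-fold from 359 ± 7.63 to 279 ± 6.4 CPM.

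Rbfox2, the RBFOX gene that is active in many tissues, binds UGCAUG beside alternative exons and lies at chr15:77078990-77307004 on the reverse strand (GRCm38). It had 206, 216 and 215 CPM in CON against 184, 183 and 183 CPM in KD, with no overlap. Its mean fell from 212 ± 5.62 to 183 ± 0.236 CPM, 1.16-fold lower (log2 fold change -0.21, SE 0.042 and edgeR adjusted p = 0.000468). The size of this fall was near the difference between the scalings, and with libraries scaled by size only it was gone (log2 fold change 0.020, edgeR adjusted p = 0.691). Its neuronal relatives stayed low. Rbfox3, known as the neuronal antigen NeuN, did not pass at 2.47 ± 0.43 CPM in CON against 2.02 ± 0.516 in KD (edgeR adjusted p = 0.276), and Rbfox1 had 1 to 13 counts in each library and was not tested.

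**Figure D4:**
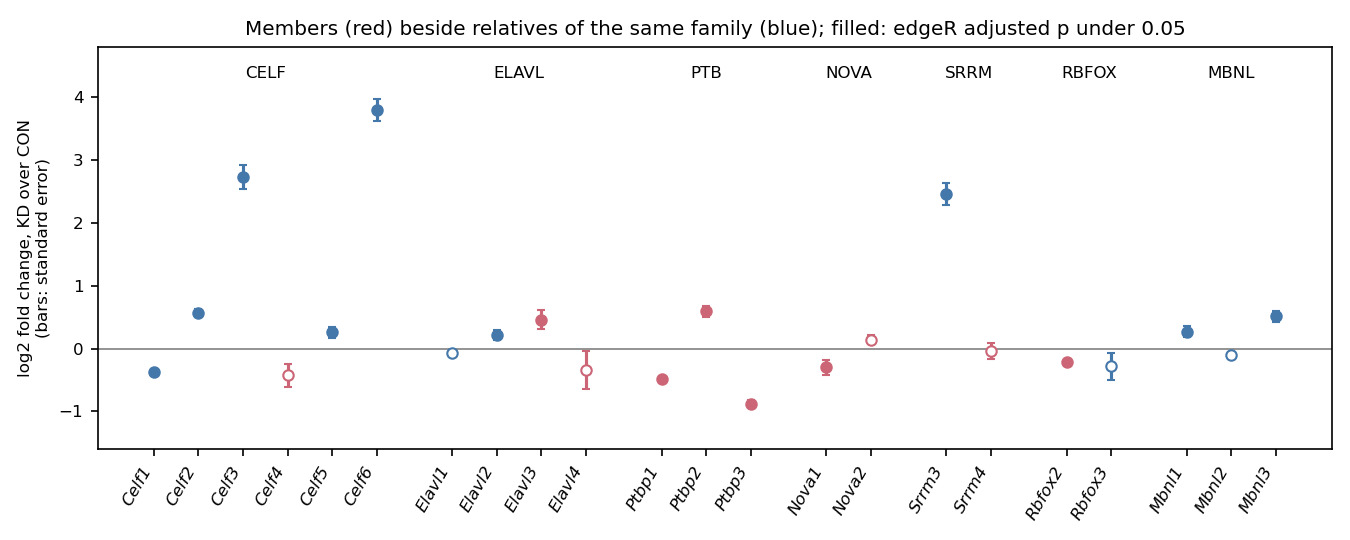
The plot gives the log2 fold change (KD over CON, vertical axis) with its SE for the members (red) and other genes (blue). The blue genes are relatives of the same families and the MBNL genes, a family without a member. Filled points passed edgeR's test at an adjusted p of 0.05. Celf3, Celf6 and Srrm3 stand above 2 on the log2 scale, while all members lie between -0.88 and 0.59.

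Beyond the members, 27 other tissue-restricted splicing regulators and partners of PTB proteins were listed, and 25 had enough reads. Of these 11 were higher, 8 lower and 6 not past the test, where 63% of all tested genes passed, 32.2% higher and 30.8% lower. The median log2 fold change was 0.13, beside 0.02 over all genes. With libraries scaled by size only, 13 were higher and 6 lower. The list's median was then 0.35, beside 0.25 over all genes. Epithelial splicing regulators moved apart: Esrp1 fell 2.03-fold from 69.7 ± 2.45 to 34.3 ± 2.4 CPM and Esrp2 rose 1.73-fold from 24.1 ± 1.81 to 41.6 ± 2.2 CPM. Qk, the quaking gene, fell 1.95-fold from 290 ± 9.49 to 149 ± 3.18 CPM. Msi2, an RNA-binding protein gene of stem cells, fell 1.51-fold, and Khdrbs1, which encodes the SAM68 splicing regulator, fell 1.44-fold. Of the MBNL genes, which oppose CELF proteins on many exons, Mbnl1 and Mbnl3 rose 1.21-fold and 1.43-fold and Mbnl2 did not pass (edgeR adjusted p = 0.121). Of the listed partners of PTB proteins, Raver2 fell 1.31-fold, with a log2 fold change of -0.39 and of -0.16 with libraries scaled by size only. Matr3 did not pass (log2 fold change 0.12, edgeR adjusted p = 0.154). With size-only scaling Matr3 passed as higher (0.35, edgeR adjusted p = 0.000534). Raver1 had at most 1 count in a library and was not tested.

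MicroRNA miR-124 is known to repress Ptbp1 in neurons. Its host transcript Mir124a-1hg had 43, 50 and 37 counts in CON against 3, 8 and 4 in KD, 9.96-fold lower (edgeR adjusted p = 4.52e-06). A second host, Mir124-2hg, had 0 to 18 counts and was not tested, and Mir9-3hg, a host of miR-9, did not pass (edgeR adjusted p = 0.153). A host transcript's count is no measure of the mature microRNA.

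Over the 6 libraries, with gene models passed over, the tested genes whose log2 CPM followed Ptbp1 most closely were Pgam5, Tnks1bp1 and Fut1 (Pearson's r of 0.9998, 0.9995 and 0.9994). They fell by different amounts, Pgam5 with a log2 fold change of -0.6, Tnks1bp1 of -0.48 and Fut1 of -4.3. Such values mostly restate the difference between the groups, since 551 named genes had r above 0.99 with Ptbp1. For Srrm4, which did not pass the test, the closest named genes were Cyp4f14, Ppa2 and Fgf2 (r of 0.968, 0.965 and 0.96). No named gene exceeded 0.99. Cyp4f14 and Fgf2 had few reads, at 0.331 and 0.513 CPM in CON. Values of this size, picked as the highest of many genes over 6 libraries, carry little weight.

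In the authors' deposited table, made with a test that no source used here names, 4 members had an adjusted p under 0.05. These were Ptbp1, Ptbp2, Ptbp3 and Rbfox2, with log2 fold changes in the authors' deposited table, turned to KD over CON, of -0.5, 0.58, -0.89 and -0.22. The DESeq2 alternative run here gave the same fold changes, so the deposited values are no separate line of evidence beside it. For Nova1 and Elavl3 the authors' deposited table gave adjusted p of 0.0935 and 0.0534. It classed all 10 members as unchanged.

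**Figure D5:**
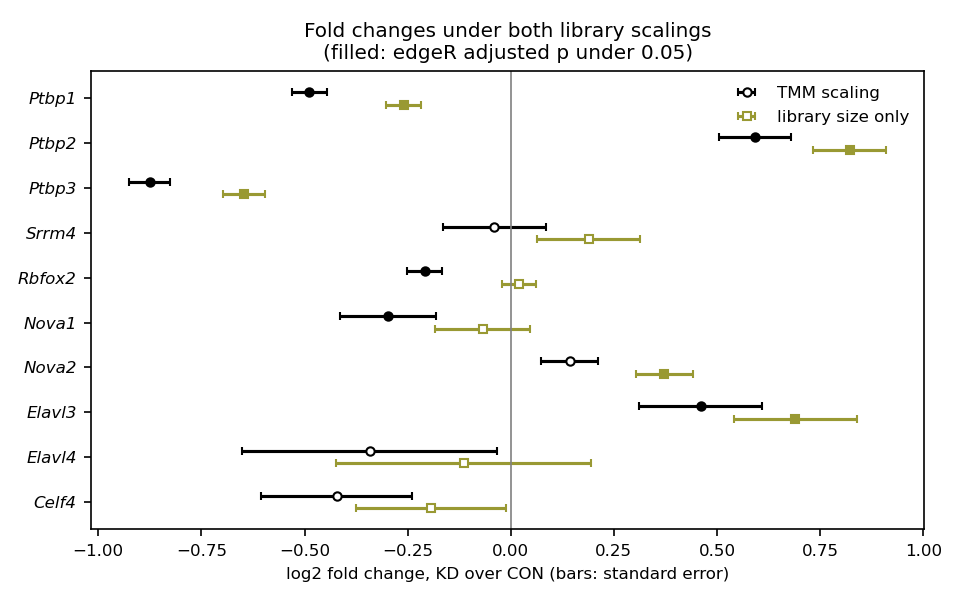
The plot gives the log2 fold change of each member (KD over CON, horizontal axis) with its SE, with libraries scaled by TMM (circles) and by size only (squares), filled where edgeR's adjusted p was under 0.05. The PTB genes and Elavl3 keep their side of 0 and their call under both, whereas Rbfox2 moves from -0.21 to 0.020 and Nova1 from -0.3 to -0.07.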

How the data were processed

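RNA-seq of 3 CON and 3 KD libraries was compared. The submitters' processing notes name FastQC 0.11.9, STAR 2.5.3a, featureCounts and the build mm10; no source used here gives the annotation release, the strand setting or how multiply mapped reads were counted. The authors deposited raw counts per gene, per the file headers, and FPKM values, which the authors made from those counts, a gene length and the library total, as the values show. The authors' deposited table also holds a log2 fold change, CON over KD from the values, and an adjusted p-value per gene. Columns were matched to samples by treatment and number.

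Counts were fitted in R 4.3.3 with edgeR 4.0.16 (filterByExpr, TMM, robust quasi-likelihood F-test), KD against CON, with a threshold of 0.05 after Benjamini-Hochberg adjustment over 18019 genes. The fitting code was run on simulated counts in which few genes changed, equally often up and down. That setting differs from these data and does not test the choice of scaling. Gene lengths were recovered from the deposited FPKM. Alternatives were library-size scaling, RLE factors, DESeq2 1.42.0, 2 other count filters, halved counts, a replicate block and leaving out each library. Of counts from 1 to 20, 70 to 71.7% were even in each library. Counting both mates of a read pair would give such an excess, but no source used here says whether reads or fragments were counted, so a printed count may stand for fewer fragments than its value. Counts divided by 2 changed no member's call.

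The members and the 11 gene lists were chosen with earlier results of these data known. Named genes are the members, Nat10, Rest and up to 4 genes per direction and list by smallest p. The 3 genes most correlated with Srrm4 and with Ptbp1, gene models passed over, are also named. The relatives of member families, the MBNL genes, Raver1, Raver2 and Matr3 were added after the data were seen. Positions, overlaps and sequences come from GENCODE M21 (GRCm38) and promoters from RefSeq. Of 2 listed markers, Dcx and Lum, no values were used here. A further 3 listed genes are not reported here and were left out of their lists' counts.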

Additional observations from a re-analysis of the deposited data

How the results depend on the processing

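Of 129 alternative values of the members' fold changes, 110 kept their direction and their side of the threshold, 10 kept their direction but lost the call, 6 gained it, and 3 turned direction, of which Rbfox2 also lost its call. Every alternative kept the calls of Ptbp1, Ptbp2 and Ptbp3. With libraries scaled by size only, Srrm4 turned to 0.19 and Rbfox2 to 0.020 on the log2 scale, 2 members rather than 4 were lower, and 3535 genes were lower and 8275 higher, against 5543 and 5801. Leaving out 1 library gave 1 to 3 members higher (without CON-2, CON-3 or KD-2 only Ptbp2) and 3 or 4 lower, and Srrm4 from -0.12 to 0.022, the last without KD-1. Elavl4 had the fewest counts of the members, 24 to 50 per library, and the widest SE, 0.309.

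Same-numbered libraries of the 2 groups showed no shared deviation (r across genes of -0.06, 0.02 and -0.04), and differently numbered ones gave -0.05 to 0.08. From 3 libraries per group these values cannot tell whether a number marks a shared culture or day. With the replicate block, 2 members were higher and 5 lower, since Celf4 passed at edgeR adjusted p = 0.0332, and 5560 and 5347 genes were higher and lower. Elavl4 could not be tested with a minimum of 1 CPM. The cause of these shifts was not tested.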

Other observations

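Srrm4 has an antisense neighbour, Srrm4os, which shares 68 exonic bases with it and was picked out after its values were seen. Srrm4os had 240, 260 and 203 counts in CON against 94, 141 and 102 in KD (log2 fold change -1.3, edgeR adjusted p = 2.73e-06), while Srrm4 itself did not pass. E130317F20Rik, which overlaps Ptbp1 on the opposite strand, had 143, 155 and 144 counts in CON against 234, 246 and 232 in KD (log2 fold change 0.45, edgeR adjusted p = 0.00558), the opposite direction to Ptbp1. Without a stated strand setting, reads in the shared bases cannot be assigned to a strand.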
